A study of Mus musculus with 12 samples.

Results

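The genes described here belong to the interleukin-17 (IL-17) axis and its epithelial response: the cytokine genes Il17a, Il17f, Il22 and Il23a, the receptor genes Il17ra and Il17rc, the regulator gene Nfkbiz and the response genes Il6, Csf2 and Csf3. They were taken by symbol from a list, without use of their measured values. In the RefSeq annotation of GRCm38.p6, Il17a and Il17f lie on chromosome 1, Il6 on 5, Il17ra and Il17rc on 6, Il22 and Il23a on 10, Csf2 and Csf3 on 11 and Nfkbiz on 16. Of the 10 genes, 9 had a probe set that the annotation assigns to that gene alone, among 19937 genes measured in all. Il22 had 2 probe sets, each shared with a second symbol, so it was not analysed here. Expression was measured in whole lungs of Balb/c mice on Affymetrix arrays, with 1 array for each of 3 mice in 4 groups, so 3 arrays per group set the precision. Neutrophilic mice received house dust mite (HDM) extract into the nose once a week, 4 times, at 7.5 development units (DU) each of the Der f and Der p allergens. Mixed mice followed the same nasal schedule at 0.75 DU of each allergen. Eosinophilic mice were sensitised by 3 intraperitoneal injections of 0.75 DU of each allergen on 1.5 mg of aluminium hydroxide, on days 0, 7 and 21, and were challenged through the nose on days 26 to 28. Control mice received only PBS through the nose. Neutrophilic and mixed mice thus differ in dose, whereas mixed and eosinophilic mice differ in route, adjuvant and schedule together. The labels used here give no age.

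IL-17A and IL-17F are related cytokines, made mainly by type 17 helper T cells, gamma delta T cells and innate lymphoid cells, which IL-23 maintains. They bind a receptor built from IL-17RA and IL-17RC on epithelial and stromal cells. That receptor acts through NF-kappaB, C/EBP factors and the stabilisation of messenger RNAs, and in the airway it is known for inducing chemokines and growth factors that bring in neutrophils.

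The 2 genes past the test's threshold in lungs of neutrophilic mice, Il6 and Il17f, are shown here by the 250 bases before their RefSeq start (GRCm38.p6). Binding or action of any factor at these windows was not tested. The Il6 window is chr5:30012864-30013113 on the plus strand, and the Il17f window is chr1:20784271-20784520 on the minus strand. The Il17f window lies inside the annotated span of Il17f, which reaches to position 20785274. Both are written 5′ to 3′, and capitals mark matches on either strand to a kappaB motif (GGGANNNNCC), a C/EBP motif (TTNNGNAAT) or an AP-1 motif (TGANTCA).
Il6: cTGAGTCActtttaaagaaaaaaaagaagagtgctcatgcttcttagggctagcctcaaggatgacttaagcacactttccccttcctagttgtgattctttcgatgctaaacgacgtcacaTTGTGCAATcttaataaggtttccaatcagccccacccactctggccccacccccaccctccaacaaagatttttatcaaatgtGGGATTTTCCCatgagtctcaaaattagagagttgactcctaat
Il17f: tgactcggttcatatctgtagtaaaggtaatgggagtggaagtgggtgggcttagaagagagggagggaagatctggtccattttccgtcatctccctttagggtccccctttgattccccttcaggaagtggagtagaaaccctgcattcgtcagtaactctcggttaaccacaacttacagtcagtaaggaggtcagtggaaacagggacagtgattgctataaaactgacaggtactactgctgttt
The Il6 window held a kappaB match at -44 to -35 on the plus strand, which overlapped a second at -43 to -34 on the minus strand, a C/EBP match at -128 to -120 and an AP-1 match at -249 to -243, counted back from the start. The Il17f window held 0 matches to these letters. Of 32851 RefSeq promoter windows of this length, 17.63% held the kappaB letters, 10.16% the C/EBP letters and 6.75% the AP-1 letters. The table held such a window for 6 of the 10 genes.

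The array of eosinophilic mouse 7 stood apart. Against the median profile of the remaining arrays its Pearson r was 0.356, and its log2 values had an SD of 0.996. Eosinophilic mouse 9 and neutrophilic mouse 23 came next, with SDs of 1.52 and 1.51, and the SDs of the other 9 arrays lay between 1.77 and 2.04. Alveolar type 2 and club cell markers, which lung should hold, had means of 6.86 and 6.20 on mouse 7 and of at least 11.5 and 10.7 on every other array. All 12 arrays entered the fit, and values from a fit without mouse 7 stand beside many of the results. Because the groups share 1 estimate of the spread, mouse 7 also widens the errors of comparisons that do not involve its group.

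Il17f, which encodes one of the IL-17 receptor's ligands, was higher in neutrophilic lung than in control lung. Its log2 level was 5.84, 6.35 and 6.46 in neutrophilic mice 23, 24 and 25, and 5.46, 5.76 and 6.19 in mixed mice 15, 16 and 17. It was 4.86, 4.80 and 4.997 in eosinophilic mice 7, 8 and 9, against 4.76, 4.92 and 5.09 in control mice 1, 2 and 3. Every neutrophilic and every mixed mouse lay above every control mouse, and the eosinophilic mice lay among the controls. The neutrophilic mean was 6.22 ± 0.33 and the control mean 4.92 ± 0.16 (SD, n = 3 each), a difference of 1.296 (SE 0.28) or 2.46-fold, with a limma adjusted p = 0.0354, and 0.00880 without mouse 7. Leaving out any control array, or neutrophilic mouse 24 or 25, ended this call in the fit on the remaining arrays, with adjusted p of 0.0822 to 0.197. Once mouse 7 was left out as well, the call held in 5 of 6 such fits, all except the one without control mouse 1 (adjusted p = 0.0589). The mixed difference was 0.88 (adjusted p = 0.258, and 0.104 without mouse 7) and the eosinophilic difference was -0.04, with a 95% interval of -0.64 to 0.57. In whole lung, a change in the number of cells of a type and a change in RNA per cell cannot be told apart.

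Il17a, the gene of the better known ligand, did not pass the test in any comparison. It measured 5.56, 6.50 and 5.45 in neutrophilic mice, 5.07, 5.10 and 5.48 in mixed mice, 6.48, 5.34 and 5.60 in eosinophilic mice, and 4.9965, 4.78 and 5.61 in control mice. The 4 groups overlapped, and the highest values came from neutrophilic mouse 24 and eosinophilic mouse 7. The difference from control was 0.71 in neutrophilic lung (adjusted p = 0.446, and 0.199 without mouse 7), with a 95% interval of -0.12 to 1.53. It was 0.09 in mixed lung and 0.68 in eosinophilic lung, where it measured 0.34 without mouse 7.

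Il23a encodes the specific subunit of IL-23, the cytokine that sustains type 17 lymphocytes. Its level was 5.25, 4.45 and 4.15 in neutrophilic mice, 4.18, 4.06 and 4.75 in mixed mice, 5.07, 3.88 and 4.08 in eosinophilic mice, and 3.84, 3.99 and 4.25 in control mice. The groups overlapped, and the 2 values above 5 came from neutrophilic mouse 23 and eosinophilic mouse 7, both arrays of low SD. Il23a was the only gene of the 9 that missed a level of 5 on at least 3 arrays, the filter on dim genes used as an alternative. No comparison passed the threshold.

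**Figure D1:**
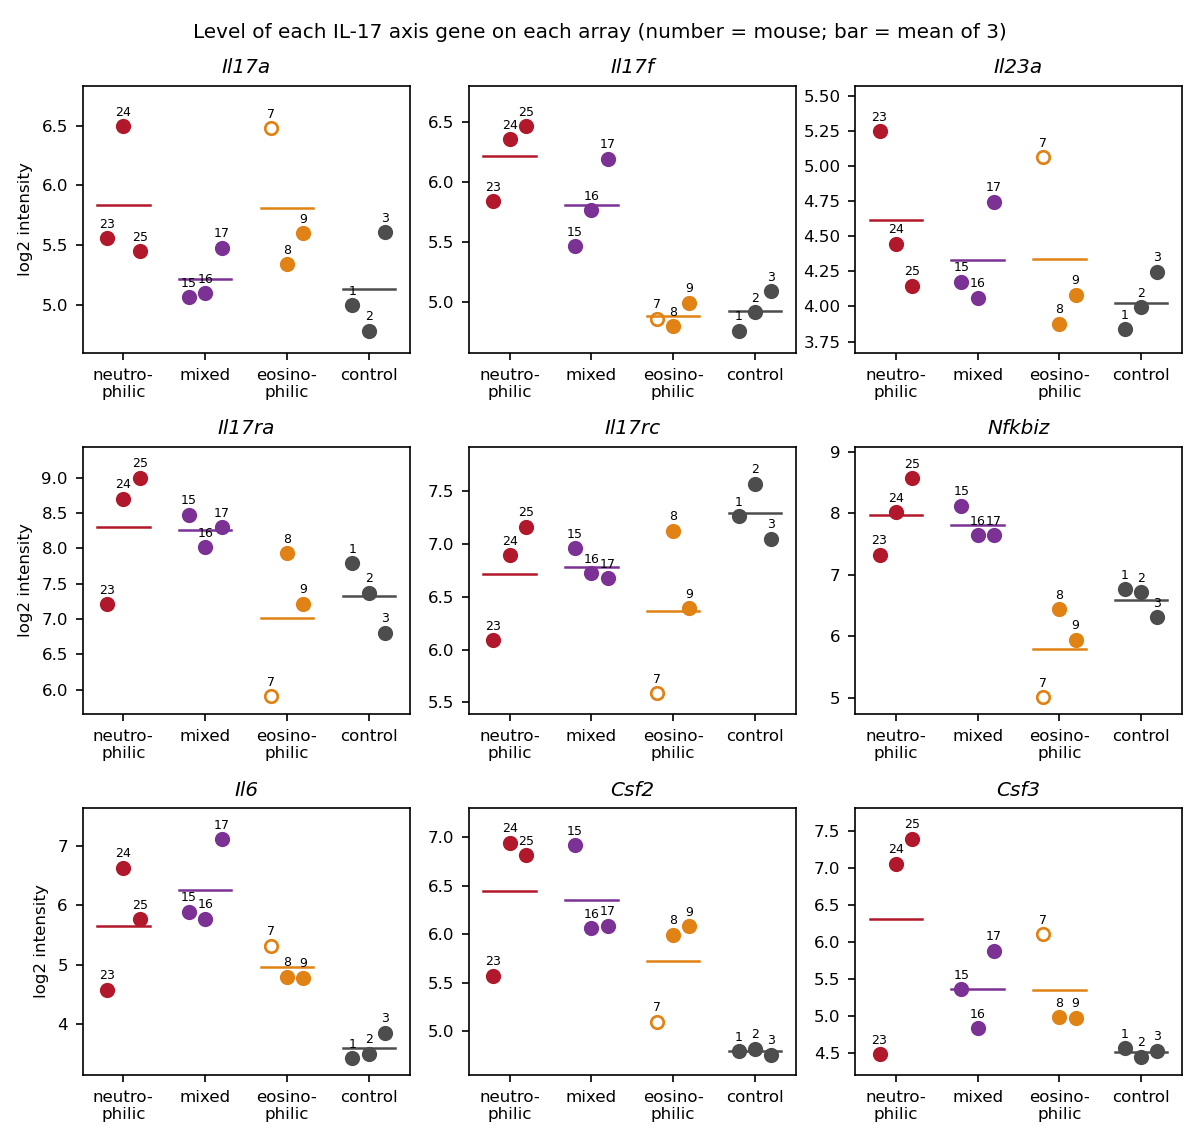
Log2 level of the 9 measured IL-17 axis genes in each mouse, in a panel for each gene, with neutrophilic, mixed, eosinophilic and control mice from left to right. Points are mice, the open symbol is eosinophilic mouse 7 and bars are group means. Control mice lay below all mice of the other 3 groups for Il6, whereas the groups overlapped for Il17a and Il23a.

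The receptor genes did not pass the threshold against control in either direction. Il17ra, the gene of the shared receptor subunit, measured 7.21, 8.71 and 9.0004 in neutrophilic mice, 8.48, 8.02 and 8.30 in mixed mice, 5.91, 7.93 and 7.22 in eosinophilic mice, and 7.79, 7.37 and 6.81 in control mice. All mixed mice lay above all control mice, while neutrophilic mouse 23 lay within the control range. The difference from control was 0.98 in neutrophilic lung (95% interval -0.19 to 2.15, adjusted p = 0.452) and 0.94 in mixed lung (adjusted p = 0.859), with adjusted p of 0.175 and 0.3502 without mouse 7. In eosinophilic lung it was -0.30 with mouse 7 and 0.25 without it, so the sign rests on that array.

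Il17rc, the gene of the other subunit of the receptor for IL-17A and IL-17F, was measured at 6.09, 6.89 and 7.17 in neutrophilic mice, 6.96, 6.72 and 6.68 in mixed mice, 5.59, 7.13 and 6.39 in eosinophilic mice, and 7.26, 7.57 and 7.05 in control mice. The mixed mice lay below the control mice without overlap, and the neutrophilic and eosinophilic ranges overlapped the control range. Differences from control were -0.58, -0.51 and -0.93 in neutrophilic, mixed and eosinophilic lung, with adjusted p of 0.560, 0.9999 and 0.1601. The eosinophilic difference was -0.53 without mouse 7 (adjusted p = 0.443). Il17ra and Il17rc thus had differences of opposite sign in the neutrophilic and mixed comparisons, none of them past the threshold.

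Nfkbiz encodes IkappaB-zeta, a nuclear cofactor of NF-kappaB that IL-17 induces in epithelium and that in turn acts on secondary response genes. Its level was 7.32, 8.01 and 8.57 in neutrophilic mice, 8.12, 7.64 and 7.64 in mixed mice, 5.01, 6.43 and 5.94 in eosinophilic mice, and 6.76, 6.71 and 6.31 in control mice. The neutrophilic and mixed mice lay above all mice of the other 2 groups, and the eosinophilic range overlapped the control range only through mouse 8. It was the only gene of the 9 past the F test for any difference among the 4 groups with all arrays (adjusted p = 0.0433), a test that called 0.883% of all genes. Without mouse 7 the F test called Nfkbiz, Il6, Il17f and Csf2 (adjusted p of 0.0138, 0.0148, 0.0214 and 0.0336), and 4.6% of all genes.

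Nfkbiz differed from control by 1.38 (SE 0.40) in neutrophilic lung, with adjusted p = 0.103 in the fit of all arrays and 0.0157 without mouse 7, when it was 2.60-fold higher. That call held in 2 of 6 fits that left out a further array, with a highest adjusted p of 0.0610 without control mouse 3. In mixed lung the difference was 1.21 (adjusted p = 0.302, and 0.0596 without mouse 7). In eosinophilic lung it was -0.80 (adjusted p = 0.198), and -0.40 without mouse 7. Over the 11 arrays without mouse 7, the genes whose levels were most like those of Nfkbiz were Cldn4, a claudin gene of epithelial tight junctions (Pearson r = 0.976), Pfkfb3, a regulator of glycolysis (r = 0.964), and Rbm47, an RNA-binding protein gene (r = 0.959). These correlations share the arrays and their differences in spread, and they are given as a description.

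Il6 was the gene with the largest difference from control among the 9 in the neutrophilic and mixed comparisons. It encodes interleukin-6, a cytokine of the acute-phase response that also promotes type 17 T cells. Its level was 4.58, 6.63 and 5.77 in neutrophilic mice, 5.89, 5.77 and 7.11 in mixed mice, 5.32, 4.80 and 4.78 in eosinophilic mice, and 3.43, 3.51 and 3.86 in control mice. No mouse that received HDM overlapped the control mice. In mixed lung the mean was 6.26 ± 0.74, against 3.60 ± 0.23 in control lung (SD, n = 3 each), a rise of 2.66 (SE 0.48) or 6.31-fold, with adjusted p = 0.0346 and 0.00633 without mouse 7. In neutrophilic lung the mean was 5.66 ± 1.03 and the rise 2.06 (SE 0.48) or 4.16-fold, with adjusted p = 0.0498 and 0.0125 without mouse 7. The eosinophilic difference was 1.37 (adjusted p = 0.127), and 1.19 without mouse 7 (adjusted p = 0.262).

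The 12-array calls of Il6 lay near the threshold. The mixed call was lost without any single control or mixed array (adjusted p of 0.0884 to 0.206), but with mouse 7 left out it held in 6 of 6 such fits (highest adjusted p = 0.0415). The neutrophilic call was lost without any control array or neutrophilic mouse 24 or 25 (adjusted p of 0.107 to 0.224), and with mouse 7 left out it held in 4 of 6, with the exceptions of the fits without control mouse 1 (adjusted p = 0.0664) or 2 (0.0587).

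Csf2, the gene of GM-CSF, a growth factor for alveolar macrophages and granulocytes, was above control in every mouse that received HDM. Its level was 5.57, 6.94 and 6.81 in neutrophilic mice, 6.91, 6.06 and 6.08 in mixed mice, 5.10, 5.99 and 6.08 in eosinophilic mice, and 4.80, 4.82 and 4.76 in control mice. The control mice were close together, with an SD of 0.03, and the lowest HDM value came from mouse 7. The neutrophilic difference was 1.65 (SE 0.41) or 3.13-fold, with adjusted p = 0.0585 in the fit of all arrays and 0.0106 without mouse 7. The mixed difference was 1.56 (SE 0.41) or 2.95-fold, with adjusted p = 0.148 and 0.0285 without mouse 7. Beyond mouse 7, leaving out a further array kept the neutrophilic call in 5 of 6 fits (0.0516 without control mouse 1) and the mixed call in 0 of 6 (adjusted p of 0.0647 to 0.123). The eosinophilic difference was 0.93 (adjusted p = 0.164), and 1.25 without mouse 7 (adjusted p = 0.139).

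Csf3 encodes G-CSF, the growth factor that drives neutrophil production, and it varied most within the neutrophilic group. Its level was 4.48, 7.06 and 7.40 in neutrophilic mice, 5.36, 4.83 and 5.88 in mixed mice, 6.11, 4.98 and 4.97 in eosinophilic mice, and 4.56, 4.44 and 4.53 in control mice. Neutrophilic mouse 23 lay within the control range, and all mixed and eosinophilic mice lay above it. The neutrophilic difference was 1.80 (SE 0.63, adjusted p = 0.177, and 0.0632 without mouse 7), and without mouse 23 it was 2.72 (adjusted p = 0.00909), in a fit that called 1.83% of all genes. The mixed difference was 0.85 (95% interval -0.52 to 2.22) and the eosinophilic difference 0.84 (95% interval -0.52 to 2.21), neither past the threshold. Without mouse 7, the highest of its group, the eosinophilic difference was 0.47 (95% interval -0.90 to 1.83). Mouse 23 had the lowest level of its group for 7 of the 9 genes and also the lowest mean of neutrophil markers of its group (6.95, against 8.50 and 8.78 in mice 24 and 25).

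**Figure D2:**
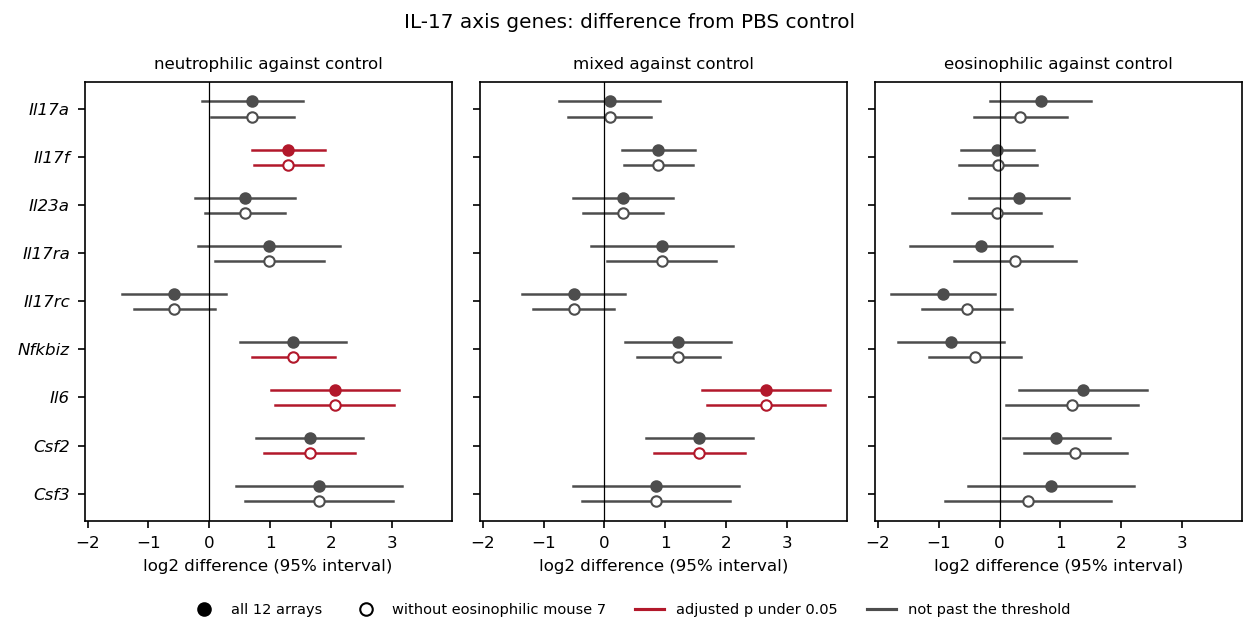
Log2 difference from control of each gene in neutrophilic, mixed and eosinophilic lung, from left to right, with 95% intervals from limma. Filled points are the fit of all 12 arrays, open points the fit without eosinophilic mouse 7, and red marks an adjusted p under 0.05. Il6 and Il17f were past the threshold in both fits in neutrophilic lung, and Il6 in both fits in mixed lung.

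Counted over the 9 genes, 2 rose in neutrophilic lung with all 12 arrays (Il17f and Il6), beside 2.11% of all genes called. Without mouse 7 the count was 4 (Il17f, Il6, Csf2 and Nfkbiz), beside 9.47% of all genes. The same 4 genes had all 3 neutrophilic values above all 3 control values, as did 12.6% of all genes. The median difference of the 9 genes was 1.296 in neutrophilic lung, against 0.05 over all genes. Centring each array on its median or quantile normalization left 0 of the 9 past the threshold. Il17f then had adjusted p of 0.0921 and 0.0767, and Il6 of 0.112 and 0.173, and both differences stayed above 1.

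In mixed lung, 1 of the 9 genes rose with all arrays (Il6), beside 0.471% of all genes called. Without mouse 7 the count was 2 (Il6 and Csf2), beside 2.99% of all genes. All 3 mixed values lay above all 3 control values for 6 genes (Il17f, Il17ra, Nfkbiz, Il6, Csf2 and Csf3), as for 9.16% of all genes. The median difference was 0.88, against 0.00 over all genes. Both scalings left 0 of the 9 past the threshold, Il6 with differences of 2.61 and 2.35 and adjusted p of 0.101 and 0.1001.

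In eosinophilic lung, limma called 0 of the 9 genes against control with all arrays, beside 0.497% of all genes, and 0 without mouse 7, beside 1.33%. At an unadjusted p under 0.05 there were 3 (Il17rc, Il6 and Csf2) beside 28.2% of all genes, and 2 without mouse 7 (Il6 and Csf2) beside 16.4%, so both counts lie near the share of all genes. All 3 eosinophilic values lay above all 3 control values for Il6, Csf2 and Csf3, as for 11.1% of all genes. Without eosinophilic mouse 8, the fit instead called Il6 higher and Il17rc and Nfkbiz lower, together with 8264 of all genes (41.5%). The median difference of the 9 genes was 0.32, against 0.01 over all genes. After centring it was 0.07, where that of all genes was -0.24.

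The models were also set against each other, on the question of allergen dose and of route, adjuvant and schedule together. Between neutrophilic and mixed lung, at 7.5 and 0.75 DU, no gene of the 9 differed past the threshold, and all 9 ranges overlapped. Limma called 0 of the 9 and 0.0% of all genes, and at an unadjusted p under 0.05 it called 0 of the 9 and 3.1% of all genes, and 0 and 7.32% without mouse 7. The intervals are wide: the difference was 0.41 for Il17f (95% interval -0.19 to 1.02), -0.60 for Il6 (95% interval -1.65 to 0.45) and 0.95 for Csf3 (95% interval -0.41 to 2.32). Without mice 7, 9 and 23 the Csf3 difference was 1.87, in a fit that kept eosinophilic mouse 8 as the only array of its group.

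Neutrophilic and eosinophilic lung differed most in Nfkbiz and Il17f with all arrays, though neither difference passed the threshold. Nfkbiz differed by 2.17 (95% interval 1.304 to 3.04, adjusted p = 0.0757), and by 1.78 without mouse 7 (adjusted p = 0.0814). Il17f differed by 1.33 (95% interval 0.73 to 1.94, adjusted p = 0.139, and 0.142 without mouse 7). All 3 neutrophilic mice lay above all 3 eosinophilic mice for both genes, but the share of all genes that did so was not counted. Limma called 0 of the 9 and 0.115% of all genes, and 3 of the 9 had an unadjusted p under 0.05 (Il17f, Il17ra and Nfkbiz), as had 10.2% of all genes. Without mouse 7 these were 2 (Il17f and Nfkbiz) and 7.78%. Single arrays decide the count at the adjusted threshold. Without eosinophilic mouse 8 it was 3 (Il17f, Il17ra and Nfkbiz) beside 13.9% of all genes, and without neutrophilic mouse 23 it was 1 (Nfkbiz) beside 0.221%.

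Each nasal application in mixed mice and each intraperitoneal injection in eosinophilic mice held the same dose of each allergen. No separate dose was recorded for the nasal challenge of eosinophilic mice, so total doses were not compared. Because route, adjuvant and schedule differ together, this comparison cannot separate them. Nfkbiz differed by 2.004 between mixed and eosinophilic lung (95% interval 1.14 to 2.87, adjusted p = 0.191), and by 1.61 without mouse 7 (adjusted p = 0.252). Il6 differed by 1.29, Il17ra by 1.25 and Il17f by 0.92, each with adjusted p = 0.295. For these 4 genes the mixed and eosinophilic mice did not overlap. The share of all genes without overlap was not counted in this comparison, so no weight is put on that number. Limma called 0 of the 9 and 0.00502% of all genes, and the same 4 genes had an unadjusted p under 0.05, as had 16.7% of all genes. Without mouse 7 these were 3 (Il17f, Il6 and Nfkbiz) and 7.24%, and the Il17ra difference was 0.69. Without eosinophilic mouse 8 the count at the adjusted threshold was 3 (Il17f, Il17ra and Nfkbiz), near the 30.0% of all genes called in that fit.

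**Figure D3:**
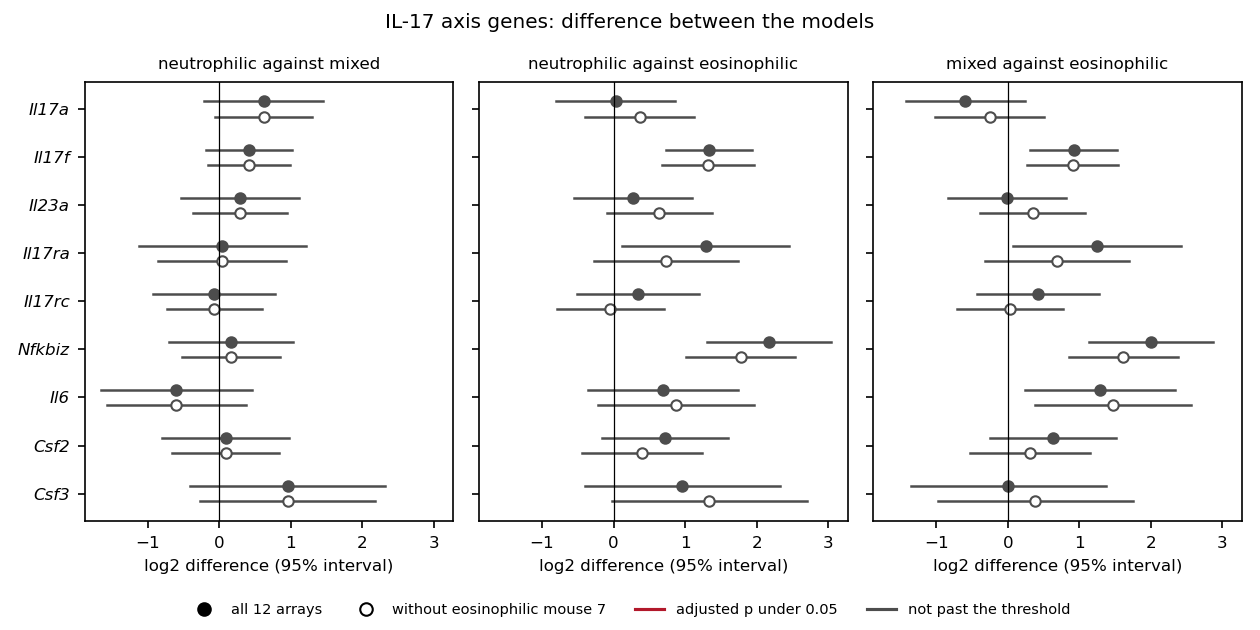
Log2 difference of each gene between models, neutrophilic against mixed, neutrophilic against eosinophilic and mixed against eosinophilic from left to right, with 95% intervals from limma. Filled points are the fit of all 12 arrays and open points the fit without eosinophilic mouse 7. No gene was past an adjusted p of 0.05, and the Nfkbiz intervals lie above 0 in both comparisons with eosinophilic lung.

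Genes known to respond to IL-17 in epithelium rose in lungs of all 3 models, in different numbers. Of 23 such genes, 11 rose and 0 fell in neutrophilic lung with all arrays, 8 rose in mixed lung and 2 in eosinophilic lung (Cxcl3 and Saa3). The median difference was 2.73, 2.92 and 0.99 in the neutrophilic, mixed and eosinophilic comparisons, against 0.05, 0.00 and 0.01 over all genes. Without mouse 7 the counts were 17, 18 and 8. Over all genes, limma called 2.11%, 0.471% and 0.497% in these comparisons with all arrays, and 9.47%, 2.99% and 1.33% without mouse 7. The counts of called genes in this list and in the later lists of genes and markers are read against these shares. These genes also respond to other signals, and S100a8 and S100a9 are neutrophil markers too. After median centring 8, 4 and 0 of the 23 passed the threshold in neutrophilic, mixed and eosinophilic lung, with medians of 2.65, 2.88 and 0.75. After quantile normalization 11, 9 and 3 did. Of all 19937 genes, 168, 23 and 2 passed after centring, and 248, 86 and 51 after quantile normalization.

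Saa3, an acute-phase gene of epithelium and macrophages, ranged over 10.8 to 11.4 in neutrophilic mice, 11.1 to 11.7 in mixed mice and 7.97 to 10.7 in eosinophilic mice, against 4.39 to 5.32 in control mice. It rose by 6.12, 6.47 and 4.40 in neutrophilic, mixed and eosinophilic lung (adjusted p of 0.000423, 0.000221 and 0.0242). Cxcl5, an epithelial attractant of neutrophils, rose by 4.54 in neutrophilic and 4.68 in mixed lung (adjusted p of 0.000254 and 0.000221). It measured 1.12 above control in eosinophilic lung (adjusted p = 0.117). Cxcl1, of the same chemokine family, rose by 3.55 and 3.33 in neutrophilic and mixed lung (adjusted p of 0.0115 and 0.0268) and measured 0.05 above control in eosinophilic lung, and 0.90 without mouse 7. Its mixed call was lost after median centring (adjusted p = 0.112) and after quantile normalization. Steap4, a metalloreductase gene, rose by 3.70 and 4.07, the mucin gene Muc5ac by 2.62 and 2.67 and the antimicrobial lectin gene Reg3g by 3.31 and 4.18 in neutrophilic and mixed lung. Lcn2, the siderophore-binding lipocalin gene, measured 2.93 and 3.53 there, with adjusted p of 0.340 and 0.430 in the fit of all arrays and 0.000987 and 0.000361 without mouse 7. In eosinophilic lung Lcn2 measured 0.28 above control with all arrays and was 2.54 higher without mouse 7 (adjusted p = 0.0197). Steap4, Muc5ac and Reg3g were also called there without mouse 7 but not with all arrays (2.23, 1.55 and 2.47), when Saa3 was 5.06 higher. After median centring of all 12 arrays, Reg3g lost its neutrophilic and mixed calls (limma adjusted p of 0.0706 and 0.0640). Muc5ac then lost its mixed call (adjusted p = 0.0527) and Saa3 its eosinophilic call (adjusted p = 0.0672).

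Of 22 measured genes of receptor signalling, 2 rose in neutrophilic lung with all arrays, and limma called 0 in mixed or eosinophilic lung, where 7 and 5 had an unadjusted p under 0.05. The 7 in mixed lung were all higher, whereas the 5 in eosinophilic lung were all lower, and without mouse 7 the eosinophilic count was 1 (Tab2). Over all genes the share at an unadjusted p under 0.05, against which such counts are read, was 14.7%, 7.95% and 28.2% in neutrophilic, mixed and eosinophilic lung, and 23.1%, 12.9% and 16.4% without mouse 7. The 2 that rose were Relb, an NF-kappaB subunit gene (1.71, adjusted p = 0.0366), and Arid5a, which encodes an RNA-binding protein that stabilises Il6 messenger RNA (2.04, adjusted p = 0.0375). Both calls were lost after median centring (adjusted p of 0.117 and 0.124). The counts of called genes were 7, 6 and 0 without mouse 7. The genes added in neutrophilic lung were Nfkb2, Cebpd and the feedback inhibitors Nfkbia, Tnfaip3 and Zc3h12a. Zc3h12a encodes Regnase-1, which degrades Il6 messenger RNA, and it differed by 2.59 (adjusted p = 0.0522, and 0.00938 without mouse 7). The adaptor gene Traf3ip2, whose product Act1 joins the receptor, measured 0.04, -0.11 and -0.67 relative to control in neutrophilic, mixed and eosinophilic lung, and Traf6 -0.09, 0.41 and -0.60, none past the threshold. Their eosinophilic differences were -0.46 and -0.18 without mouse 7.

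Among 7 further IL-17 family ligand and receptor genes, 1 fell in neutrophilic lung, Il17rd, whose product modulates IL-17 receptor signalling (-1.54, adjusted p = 0.0206). That call was lost after quantile normalization (-1.35, adjusted p = 0.108). Without mouse 7, Il17rd (-1.19, adjusted p = 0.0279) and Il17re, the receptor gene for IL-17C (-1.26, adjusted p = 0.0151), fell in mixed lung. Of 4 genes for IL-22 receptors and the IL-22 binding protein, limma called 0 in each comparison with control, with or without mouse 7. At an unadjusted p under 0.05 there were 1, 0 and 0 in neutrophilic, mixed and eosinophilic lung, and 1, 1 and 0 without mouse 7.

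Of 13 measured genes of type 17 lymphocytes, 2 rose in neutrophilic lung: Batf (2.16, adjusted p = 0.0424) and Irf4 (2.66, adjusted p = 0.0260), transcription factor genes that other activated lymphocytes and myeloid cells also use. In mixed and eosinophilic lung limma called 0 of the 13, and 3 and 5 had an unadjusted p under 0.05. The 3 in mixed lung were higher, and of the 5 in eosinophilic lung 2 were higher and 3 lower. In neutrophilic lung 6 had such a p, of which 5 were higher and 1 lower (Rora). Without mouse 7 these were 7, of which 5 were higher and 2 lower (Rora and Ahr). After median centring Batf and Irf4 were no longer past the threshold in neutrophilic lung (adjusted p of 0.114 and 0.0884). Without mouse 7 the counts were 5, 3 and 1. Il23r, the gene of the IL-23 receptor, and Ccr6, a chemokine receptor gene of type 17 cells, were then higher in neutrophilic lung (1.14 and 1.18, adjusted p of 0.0351 and 0.0379), and measured 0.19 and 0.40 in mixed lung. Of 7 genes of IL-12 family and inducing cytokines, Il1b rose in neutrophilic lung (3.28, adjusted p = 0.0498, and 0.124 after median centring). It measured 3.43 above control in mixed lung (adjusted p = 0.0837, and 0.0107 without mouse 7).

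Of 11 genes of the IL-6 family and its signalling, 2 rose in neutrophilic and in mixed lung, and limma called 0 in eosinophilic lung, where 3 had an unadjusted p under 0.05 (2 higher and 1 lower), near the share of all genes. Socs3, the feedback inhibitor that IL-6 induces through STAT3, rose by 3.61 and 2.93 in neutrophilic and mixed lung (adjusted p of 0.0105 and 0.0464), and Osm, the gene of oncostatin M, by 2.98 and 2.14 (adjusted p of 0.00118 and 0.0140). After median centring both mixed calls were lost (adjusted p of 0.178 and 0.0527). Socs3 measured 0.98 above control in eosinophilic lung (adjusted p = 0.244), and 1.77 without mouse 7 (adjusted p = 0.0365). Without mouse 7, limma called 3 of the 11 higher in neutrophilic and in mixed lung (Socs3, Osm and Osmr) and 1 in eosinophilic lung (Socs3). It also called 1 lower in each, Lifr. The Lifr mean was then 7.32, 7.88 and 7.85 in neutrophilic, mixed and eosinophilic lung, against 9.25 in control lung. The receptor genes Il6ra and Il6st measured 0.17 and -0.08 in neutrophilic lung and 0.01 and 0.26 in mixed lung, none past the threshold. Of 9 genes for colony-stimulating factor receptors and relatives, limma called 0 with all arrays in each comparison with control, and 4, 4 and 2, all higher, had an unadjusted p under 0.05 in neutrophilic, mixed and eosinophilic lung. Without mouse 7 it called 4, 3 and 2 in neutrophilic, mixed and eosinophilic lung, of which Csf2rb, the shared signalling chain for GM-CSF, was called in all 3 (2.48, 2.25 and 2.11). Csf3r, the G-CSF receptor gene of neutrophils, was called in neutrophilic lung (1.84, adjusted p = 0.0163) and measured 1.15 in mixed lung (adjusted p = 0.213).

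**Figure D4:**
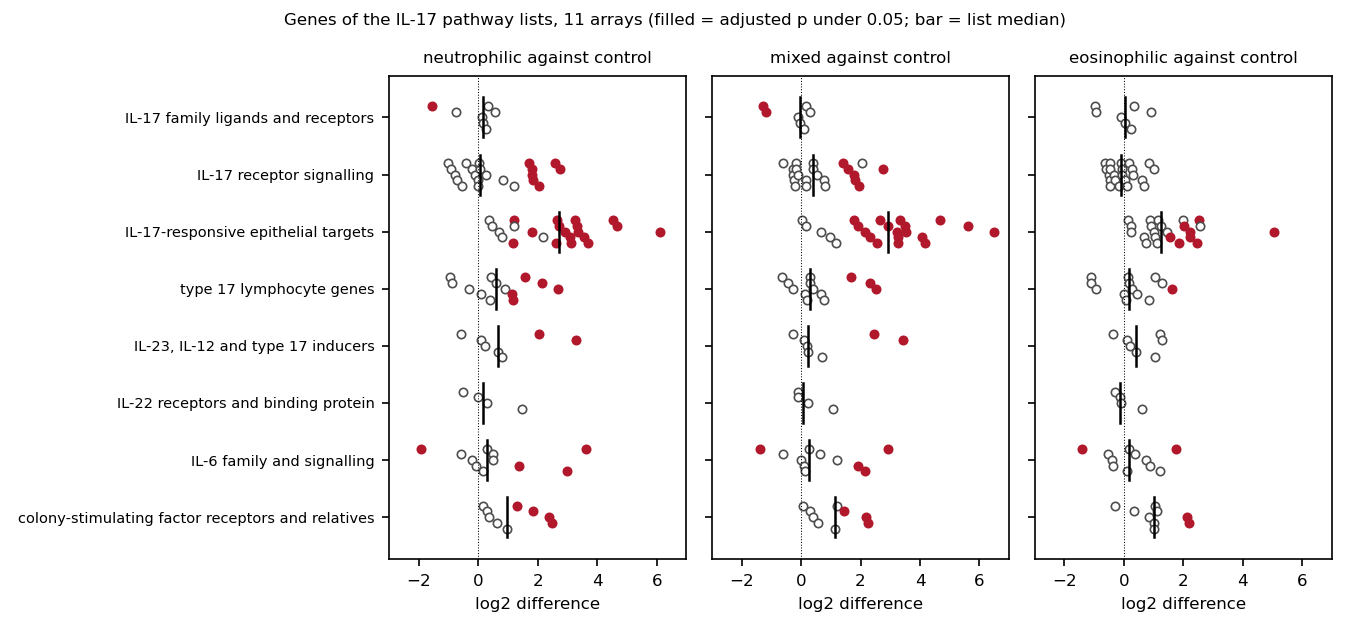
Log2 difference from control of every measured gene of the 8 lists around the IL-17 axis, in neutrophilic, mixed and eosinophilic lung, from the fit without eosinophilic mouse 7. Points are genes, filled red points have an adjusted p under 0.05 and bars are list medians. The list of epithelial targets has medians of 2.73, 2.92 and 1.25, above those of the other lists in the same comparison.

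Markers of some other cells moved with these groups, whereas limma called 0 T cell markers. The mean log2 level of 10 measured neutrophil markers was 6.95 to 8.78 in neutrophilic mice, 7.53 to 8.18 in mixed mice and 5.93 to 7.25 in eosinophilic mice, against 5.40 to 5.92 in control mice. Of these, 5, 1 and 0 were called higher in neutrophilic, mixed and eosinophilic lung with all arrays, and 8, 8 and 0 without mouse 7. In eosinophilic lung 3 had an unadjusted p under 0.05 in limma, near the share of 28.2% of all genes, and 5 without mouse 7, beside 16.4%. The mean of 8 T cell markers was 5.68 to 6.86 in neutrophilic mice, 6.04 to 6.75 in mixed mice, 5.52 to 6.45 in eosinophilic mice and 5.85 to 6.50 in control mice, and limma called 0 of them (1 with an unadjusted p under 0.05, in eosinophilic lung). Of 4 gamma delta T cell markers, only Cd163l1 was measured, at group means of 4.93, 4.93, 4.69 and 4.52 in neutrophilic, mixed, eosinophilic and control lung. The mean of 5 eosinophil markers was 5.59 to 6.25 in neutrophilic mice, 6.02 to 6.36 in mixed mice and 5.49 to 6.87 in eosinophilic mice, against 4.75 to 4.92 in control mice. Of these 5, only Rnase2a was called, in each comparison, with or without mouse 7. Its group means were 8.42, 9.71, 9.52 and 4.06 in neutrophilic, mixed, eosinophilic and control lung. In the same order, Epx measured 4.79, 4.26, 5.30 and 4.21, and Prg2 5.03, 4.69, 4.93 and 4.27. Siglecf measured 6.64, 6.85, 6.17 and 6.54, and Ccr3 5.05, 5.56, 5.46 and 5.14. Of 4 blood endothelial markers, limma called 0 with all arrays. Without mouse 7, Kdr and Tek were called lower in neutrophilic and mixed lung, and Tek was called lower in eosinophilic lung. There, 3 had an unadjusted p under 0.05 in limma (Kdr, Tek and Cldn5), all lower, beside 16.4% of all genes. Of 3 club cell, 3 ciliated cell and 4 fibroblast markers, limma called 0 with all arrays. Without mouse 7, Cyp2f2 of club cells, Dnah5 of ciliated cells and Dcn of fibroblasts were called lower in neutrophilic lung. The club cell genes Scgb1a1 and Scgb3a1 were then higher there at an unadjusted p under 0.05 in limma, beside 23.1% of all genes. The part of all these cells in the results on the IL-17 axis was not tested.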

How the data were processed

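Total RNA of 12 whole lungs was measured on Affymetrix arrays, 1 per mouse. The submitters' processing notes name RMA and Affymetrix Expression Console as the authors' tools, with no version, and the deposited values are log2 intensities, 1 per probe set. RMA normalizes quantiles between arrays, yet the deposited arrays differed in spread. The base of 2 was inferred from the range of values, and no detection calls were used.

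Of 34760 probe sets, 21640 had a single gene symbol in the platform annotation, 1321 had several and 11799 were not listed. Each gene was read from its brightest probe set by mean over the arrays, giving 19937 genes. With limma 3.58.1 in R 4.3.3 (lmFit, eBayes), 4 group means were fitted to all 12 arrays and 6 contrasts taken. Tests are two-sided, with Benjamini-Hochberg adjustment over the 19937 genes within a comparison and a threshold of 0.05 on the adjusted p. A difference is the first group minus the second on the log2 scale, and intervals are 95%. The fit was tested on simulated data in which a gene had the same spread on all arrays. The unequal spread of the deposited arrays was therefore not covered. The members of the axis, the gene lists, the motifs and the tests were chosen with earlier results of these data known, so list counts are descriptions. All members are named. From a list, any gene past the threshold against control may be named, or up to 4 by smallest p in neutrophilic against control, and Il6ra, Il6st, Traf3ip2 and Traf6 were added for their role after values were seen. For a member past the F test, the 3 genes of highest correlation are named.

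Sequences are from a RefSeq table of GRCm38.p6 promoters. Alternatives were a filter on dim genes (5 or more on at least 3 arrays), other scalings, eBayes settings, 2-group fits, the mean of probe sets and arrays left out.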

Additional observations from a re-analysis of the deposited data

How the results depend on the processing

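The counts of genes past the threshold, out of 9, depended on scaling and on single arrays. In neutrophilic against control the count of 2 became 0 after median centring, beside 168 of all genes called, and 0 after quantile normalization, beside 248. It was 4 when only the arrays of the 2 groups were fitted, beside 2124 of all genes. In mixed against control the count of 1 became 0, 0 and 5 under the same settings, beside 23, 86 and 1689 of all genes. With trend and robust eBayes it was 2, beside 240 of all genes. A fit without eosinophilic mice 7 and 9 and neutrophilic mouse 23 kept eosinophilic mouse 8 as the only array of its group. Its counts are therefore not given. Leaving out arrays, alone or together with mouse 7 (a setting added after seeing the data), gave 0 to 6 in neutrophilic against control, 0 to 2 in mixed against control, 0 to 3 in eosinophilic against control, in mixed against eosinophilic and in neutrophilic against eosinophilic, and 0 in neutrophilic against mixed. The F test called 1 gene, and 4 without mouse 7. Over all genes and the other settings, the calls ranged over 17 to 2124 in neutrophilic, 6 to 1689 in mixed and 0 to 8264 in eosinophilic against control. They were 421, 94 and 99 in the fit as reported. Of 876 single-gene values under alternatives, 805 kept their side of the threshold, 25 were no longer past it, 46 were newly past it and 0 changed sign while past it. A further check found 52 sign changes, all among values not past the threshold in either fit. Of the 7 gene lists other than the epithelial targets, median centring (for lists, also added after seeing the data) left calls in 2 (Il17rd, and Socs3 with Osm, all in neutrophilic lung); no gene called before or after either scaling changed sign. The cause of these shifts was not tested. No paired analysis was possible because the groups share no replicate numbers.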
